A study of Mus musculus with 4 samples.

Results

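The 10 genes described here encode proteins of neutrophil granules, the S100 alarmins and a transcription factor of the granulocyte lineage. They were taken by symbol (Mpo, Elane, Ctsg, Prtn3, S100a8, S100a9, Cebpe, Ltf, Ngp and Camp) from an array table of mouse long-term haematopoietic stem cells. Each symbol matched 1 probe set, named by its Entrez gene, so the 10 members were found among 23185 named genes. Of these, 6 passed a filter on low values, which asked for an average log2 intensity across the arrays no lower than 4.06, the median of such averages over all genes. Cebpe, Ltf, Ngp and Camp lay below it.

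The study asked how low doses of γ-irradiation affect blood stem cells in the long run. Mouse marrow cells of the Lin- ckit+ Sca+ fraction were irradiated at 0, 0.02, 0.1 or 0.5 Gy and then given to lethally irradiated recipients, and 6 months later CD150+ CD48- Flk2- stem cells were sorted again from the same fraction. All 4 groups therefore share the sort, the transplantation and the lethally irradiated host, and differ by label in the dose to the graft. No marker of donor cells is named in the gate, so descent from the graft is not shown. The sources used here do not give strain, sex, age or the number of mice behind each RNA. Each dose has 1 array, so a difference between doses has no replicate check and no test. The number of arrays limits its precision.

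A neutrophil fills its granules in steps. Promyelocytes first make the primary (azurophil) granules, which hold myeloperoxidase and the serine proteases elastase, cathepsin G and proteinase 3, and the genes for these are already active in granulocyte and monocyte progenitors. Later stages, under the transcription factor C/EBPε, make the secondary and tertiary granules with lactoferrin and the cathelicidin peptide. S100A8 and S100A9 form the heterodimer calprotectin, an abundant cytosolic protein of neutrophils and monocytes that acts as an alarm signal when released. In long-term stem cells these genes are mostly silent or low.

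The sequences before the starts of the primary granule and alarmin genes are shown because these 6 genes carry most of the differences below. They are the 150 bases before the annotated start in RefSeq, build GRCm38.p6, read 5′ to 3′ on the gene's strand. The windows are chr11:87793634-87793783 (plus strand) for Mpo, chr10:79886162-79886311 (plus) for Elane, chr10:79879517-79879666 (plus) for Prtn3, chr14:56102575-56102724 (minus) for Ctsg, chr3:90668921-90669070 (plus) for S100a8 and chr3:90695722-90695871 (minus) for S100a9. Capitals mark letters that match a motif of C/EBP factors (TTNNGNAA), PU.1 (GAGGAA), RUNX factors (TGNGGT) or MYB (TAACNG) on either strand.
Mpo: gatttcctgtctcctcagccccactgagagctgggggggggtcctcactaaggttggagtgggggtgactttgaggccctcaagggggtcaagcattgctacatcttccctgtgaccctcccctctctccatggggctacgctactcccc
Elane: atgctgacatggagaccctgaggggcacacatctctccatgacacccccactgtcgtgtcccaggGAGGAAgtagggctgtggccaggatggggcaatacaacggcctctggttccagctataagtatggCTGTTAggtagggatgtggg
Prtn3: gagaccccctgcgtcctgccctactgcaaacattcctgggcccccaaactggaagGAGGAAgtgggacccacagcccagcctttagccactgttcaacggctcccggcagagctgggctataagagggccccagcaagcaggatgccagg
Ctsg: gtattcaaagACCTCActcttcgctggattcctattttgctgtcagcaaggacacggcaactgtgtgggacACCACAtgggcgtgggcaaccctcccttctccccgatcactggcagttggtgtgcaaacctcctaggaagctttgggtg
S100a8: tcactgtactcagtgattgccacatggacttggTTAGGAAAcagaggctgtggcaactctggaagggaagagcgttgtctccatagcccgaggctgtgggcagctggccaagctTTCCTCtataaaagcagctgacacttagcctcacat
S100a9: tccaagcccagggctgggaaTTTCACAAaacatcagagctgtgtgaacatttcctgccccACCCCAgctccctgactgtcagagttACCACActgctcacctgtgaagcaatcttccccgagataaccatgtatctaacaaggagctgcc

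**Figure D1:**
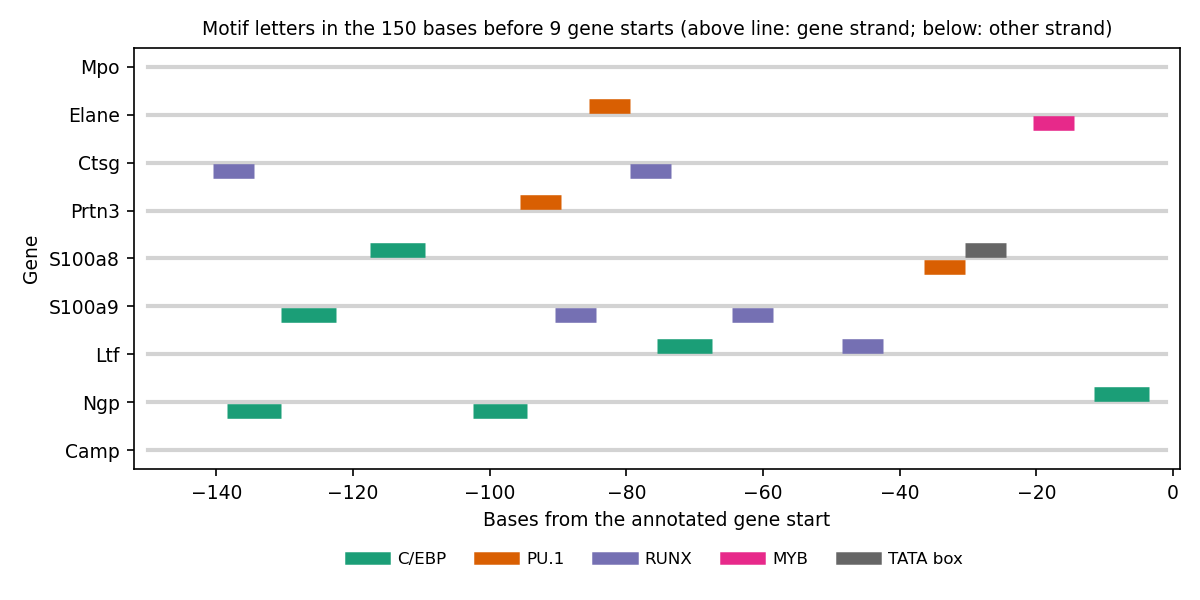
Motif letters in the 150 bases before the start of 9 genes, with the distance from the annotated start in bases on the x axis and 1 gene per line; marks above a line are on the gene's strand and marks below on the other strand. Elane and Prtn3 each hold the PU.1 letters on the gene's strand, Ngp holds the C/EBP letters at 3 places, and the Mpo and Camp lines carry no mark.

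The PU.1 letters began 85 bases before the start of Elane and 95 bases before that of Prtn3. Only S100a8 among the other members also held them, so 3 of 9 members did, against 14.5% of 32851 promoters of the same length. The C/EBP letters were found in 4 of 9 members (S100a8, S100a9, Ltf and Ngp) and in 22.7% of all promoters. The RUNX letters were found in 3 of 9 (Ctsg, S100a9 and Ltf) and in 26.0% of all, and the MYB letters in 1 of 9 (Elane) and in 12.0%. A TATAAA sequence stood 30 bases before the start of S100a8, the only member with it, and in 7.57% of all promoters. The table used has no entry for Cebpe. A match is a description of letters and not of a bound site.

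The median log2 intensity over all 25206 probe sets was between 4.01 and 4.07 on the 4 arrays. As a guide to low signal, the 1350 measured olfactory and vomeronasal receptor genes, most of which are silent outside sensory tissue, had a 95th percentile between 3.75 and 3.86 on each array. The number of the 10 members above this percentile was 4 on the control array and 6, 8 and 7 on the arrays of 0.02, 0.1 and 0.5 Gy. The stem cell genes Kit, with log2 intensities between 10.12 and 10.57, and Hlf, between 9.63 and 10.02, were well above it on every array. Slamf1, which encodes the sorted CD150, had 7.67, 8.65, 7.16 and 7.77 in order of dose, and Fgd5 had 5.40, 6.24, 4.69 and 5.01. Slamf1 and Fgd5 were lowest on the 0.1 Gy array, and Kit and Hlf were not. Cd48, whose protein was sorted against, had 4.13, 3.08, 4.11 and 4.13 in order of dose. It was above this percentile, and just above the filter level, on 3 of the 4 arrays.

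**Figure D2:**
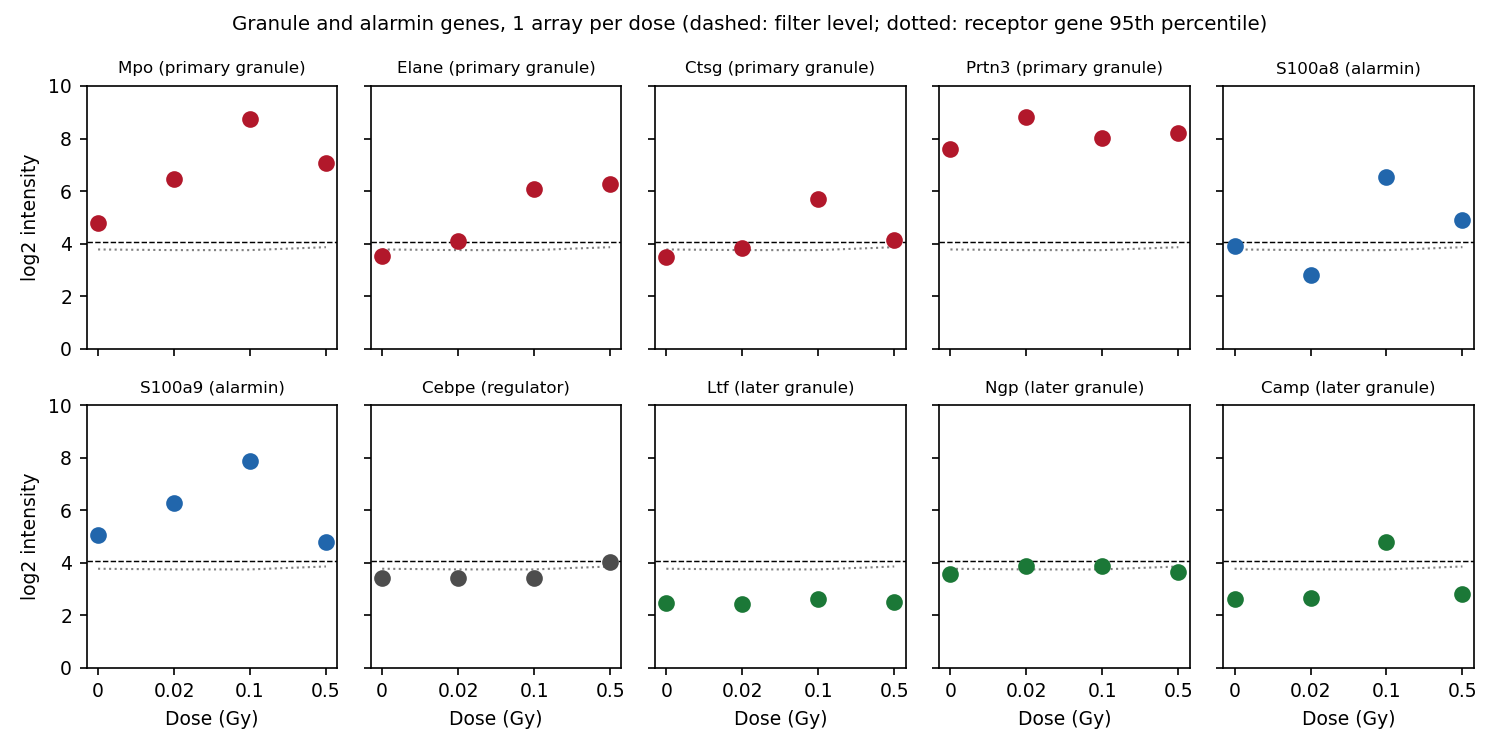
Log2 intensity (y axis) of each of the 10 genes on the array of each dose (x axis, in Gy, evenly spaced); each point is 1 array, the dashed line is the filter level of 4.06 and the dotted line the 95th percentile of olfactory and vomeronasal receptor genes. Mpo, Ctsg, S100a8, S100a9 and Camp are highest at 0.1 Gy, Elane at 0.5 Gy and Prtn3 at 0.02 Gy, while Ltf stays below both lines.

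Among the primary granule genes, the 0 Gy array had the lowest value for all 4, and the irradiated array with the highest value differed between them. Mpo, which encodes myeloperoxidase, the enzyme that makes hypochlorous acid, had log2 intensities of 4.78, 6.44, 8.75 and 7.07 in order of dose (0, 0.02, 0.1 and 0.5 Gy). All 3 irradiated arrays were thus above the control, by 3.17-fold, 15.7-fold and 4.89-fold in order of dose. Mpo was above the filter level on all 4 arrays and above the receptor genes' 95th percentile too. The gene (Entrez 17523) lies on chromosome 11 from 87793784 to 87804412 in GRCm38.

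Elane, neutrophil elastase, had log2 intensities of 3.54, 4.09, 6.09 and 6.28 at 0, 0.02, 0.1 and 0.5 Gy. The arrays fell into a low pair (0 and 0.02 Gy) and a high pair (0.1 and 0.5 Gy). Within the high pair the values differed by 0.20 and within the low pair by 0.55. At 0.1 Gy the value was 5.85-fold and at 0.5 Gy 6.70-fold that of the control. The control value lay below the 95th percentile of receptor genes, so the size of these folds is uncertain. Ctsg, cathepsin G, had 3.48, 3.82, 5.71 and 4.12 in the same order. The 0.1 Gy array stood apart, 4.69-fold above the control, and the other 3 lay within 0.64 of each other near the low end of the scale.

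Prtn3, proteinase 3, had log2 intensities of 7.60, 8.81, 8.04 and 8.21 at 0, 0.02, 0.1 and 0.5 Gy. Its largest difference from the control was 2.32-fold, at 0.02 Gy, and at 0.1 Gy, where the other primary granule genes were 4.69-fold to 15.7-fold higher, it was 1.35-fold higher. Prtn3 (Entrez 19152, chromosome 10 from 79879667 to 79883174) and Elane (50701, chromosome 10 from 79886312 to 79888216) are neighbours, 3138 bases apart, and both carry the PU.1 letters shown above. Their highest values were on different arrays, and a link between these letters and the levels was not tested. Ctsg (13035) lies on chromosome 14 from 56099885 to 56102574, beside genes of mast cell proteases and granzymes.

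The alarmin genes were both highest at 0.1 Gy and did not follow each other at the other doses. S100a9 had log2 intensities of 5.05, 6.26, 7.89 and 4.79 at 0, 0.02, 0.1 and 0.5 Gy. It was 7.14-fold above the control at 0.1 Gy and 2.32-fold above it at 0.02 Gy, and the 0.5 Gy array was the lowest of the 4. S100a8 had 3.89, 2.81, 6.54 and 4.88 in the same order, 6.28-fold above the control at 0.1 Gy and 1.98-fold above it at 0.5 Gy. At 0.02 Gy S100a8 was 2.12-fold below the control while S100a9 was above it, but this S100a8 value and the control value of 3.89 are close to or below the receptor genes' 95th percentile. With values below that percentile raised to it, a setting chosen after seeing the data, the S100a8 difference at 0.02 Gy was -0.14 on the log2 scale in place of -1.08. The genes lie 22596 bases apart on chromosome 3, S100a8 (Entrez 20201) from 90669071 to 90670034 and S100a9 (20202) from 90692630 to 90695721.

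The genes of later granules and their regulator were low on nearly all arrays. Cebpe, which encodes the transcription factor C/EBPε needed for secondary granules, had log2 intensities of 3.41, 3.40, 3.41 and 4.04 in order of dose. The values at 0 and 0.1 Gy were exactly equal in the deposited table, and only the 0.5 Gy value was above the receptor genes' 95th percentile. Ltf, lactoferrin, an iron-binding protein of secondary granules, lay between 2.42 and 2.61 on the 4 arrays, below that percentile on each. Ngp, neutrophilic granule protein, lay between 3.56 and 3.88, with equal values at 0.02 and 0.1 Gy. Camp, the precursor of the cathelicidin antimicrobial peptide, was the exception, with 2.61, 2.65, 4.78 and 2.80 at 0, 0.02, 0.1 and 0.5 Gy. Only the 0.1 Gy array was above the filter level, 4.49-fold above a control value at background, and its difference of 2.17 on the log2 scale became 1.01 with low values raised to the percentile. Ltf, Ngp and Camp all lie on chromosome 9, Camp (Entrez 12796) from 109847377 to 109849456, Ngp (18054) from 110419808 to 110423012 and Ltf (17002) from 111019292 to 111042766, and Cebpe (110794) lies on chromosome 14 from 54710363 to 54712174.

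Set against the control, the members as a group were furthest from 0 at 0.1 Gy. At that dose 6 of the 10 (Mpo, Elane, Ctsg, S100a8, S100a9 and Camp) were higher by 2-fold or more and 0 were lower by that much, and the median log2 difference of the 10 was 2.20. Of all named genes, 1.13% passed 2-fold upwards and 1.69% downwards at this dose, and their median was 0.00. Mpo was the 8th highest of 23185 differences, S100a9 the 14th and S100a8 the 15th. The control values of Elane, Ctsg and Camp lay below the receptor genes' 95th percentile, so their differences are not ranked. The members were chosen with earlier results of these arrays known, so their count is a description and not a test of the group.

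At 0.02 Gy 3 members (Mpo, Prtn3 and S100a9) were at least 2-fold higher, against 1.81% of all named genes, and 1 (S100a8) was at least 2-fold lower, against 1.10%. The median difference was 0.33. At 0.5 Gy 2 members (Elane and Mpo) passed 2-fold upwards, against 1.23% of all, and 0 of the 10 downwards, against 1.87%, and the median was 0.62. S100a8 lay just inside the threshold at this dose, with a log2 difference of 0.99. The 3 comparisons share the 0 Gy array, so a low control value moves all 3 together.

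**Figure D3:**
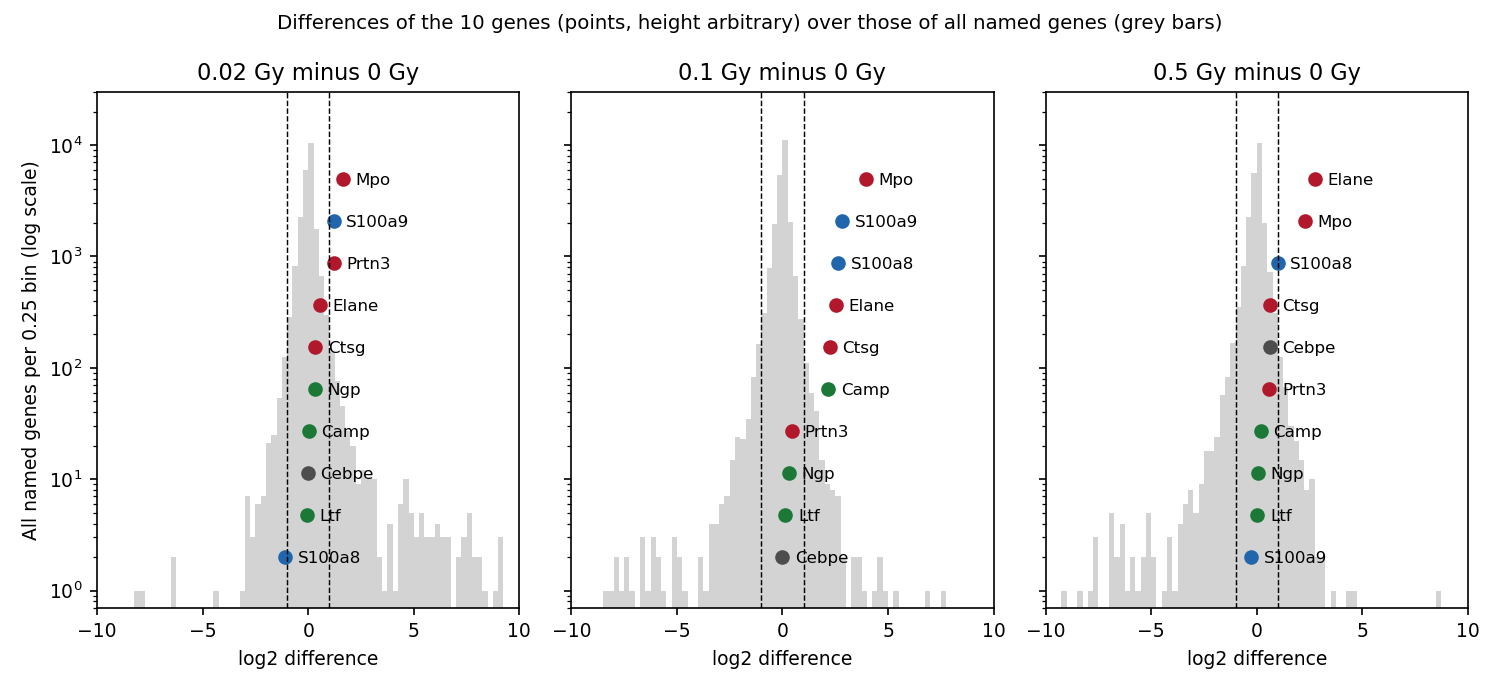
Log2 difference of each irradiated array from the 0 Gy array (x axis) for the 10 genes (labelled points, coloured by role, whose height is arbitrary) over the number of named genes in bins of 0.25 (grey bars, y axis on a log scale); dashed lines mark 2-fold. At 0.1 Gy 6 points lie beyond the right line, at 0.02 Gy 3 do and 1 lies beyond the left line, and at 0.5 Gy 2 lie beyond the right line.

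Comparisons between irradiated arrays do not use the control. They share arrays with each other and with the comparisons above. From 0.02 to 0.1 Gy, 6 members (Mpo, Elane, Ctsg, S100a8, S100a9 and Camp) stood 2-fold or more higher on the 0.1 Gy array and 0 lower, against 1.01% and 2.21% of all named genes. Mpo differed by 2.31 on the log2 scale. S100a8 differed by 3.73, or 2.79 with its 0.02 Gy value raised to the receptor genes' 95th percentile, and Camp by 2.12, or 1.03 with low values raised. Between 0.5 and 0.1 Gy, 5 members (S100a9, Camp, Mpo, S100a8 and Ctsg) were at least 2-fold lower at 0.5 Gy, against 1.27% of all genes, and 0 were higher, against 1.10%. S100a9 led, with a difference of -3.10. Camp had -1.98, or -0.92 with low values raised, which is short of 2-fold and would take it out of the count. Elane was the exception, with 0.20. Between 0.5 and 0.02 Gy, 2 members were higher (Elane at 2.19 and S100a8 at 2.07, the latter 1.13 with its low value raised), against 1.12%, and S100a9 was lower at -1.48, against 2.23%.

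Across all 4 arrays, the 0.1 Gy array held the highest value, alone or tied, for 7 of the 10 members, against 38.3% of all named genes. These 7 include Ltf, below the receptor genes' 95th percentile on every array, and Ngp, tied with 0.02 Gy. The 0 Gy array held the lowest value, alone or tied, for 6 of the 10, against 34.0% of all. Among these 6, the control values of Elane, Ctsg, Ngp and Camp lay below that percentile. The members were chosen with earlier results of these arrays known, so both counts are descriptions. Elane and Cebpe were highest on the 0.5 Gy array and Prtn3 on the 0.02 Gy array.

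A limma fit of the 3 irradiated arrays against the 0 Gy array, over the 11593 genes kept by the filter, called 0.00% of genes at an adjusted p of 0.05, and 1260 genes had an unadjusted p below 0.05. The fit treats the 3 doses as repeats of each other and takes the spread between them, on 2 residual degrees of freedom, as the error of the lone control as well. None of the 6 members tested passed, and without the filter, where 0.919% of all named genes were called, none of the 10 did. Mpo had a mean difference of 2.64 with a standard error of 1.20, Elane 1.95 with 1.22 and Prtn3 0.75 with 0.41. These genes were higher on 3 of 3 irradiated arrays, but the 3 differences share the lone control. Of all named genes, 34.0% had their lowest value, alone or tied, on the 0 Gy array. Ctsg had a mean difference of 1.07 with a standard error of 1.02, S100a8 0.85 with 1.88 and S100a9 1.26 with 1.56.

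The other genes of the neutrophil programme were looked at in 3 lists. Of all named genes, 1.81%, 1.13% and 1.23% passed 2-fold upwards at 0.02, 0.1 and 0.5 Gy, and 1.10%, 1.69% and 1.87% downwards. Lists this short would hold few or none at such shares, so a count of 0 is no sign that a list stayed still. Of 27 measured genes of other granule and neutrophil effector proteins, 0 passed 2-fold upwards at any dose and Hp alone passed it downwards, at 0.02 and 0.5 Gy. The medians of this list were 0.00, 0.01 and 0.00 at 0.02, 0.1 and 0.5 Gy. Hp, which encodes the haemoglobin scavenger haptoglobin, had log2 intensities of 5.34, 3.82, 4.50 and 3.87 in order of dose, the control being highest. Ncf4, a subunit of the phagocyte oxidase, had 4.22, 4.55, 5.02 and 4.73, highest at 0.1 Gy by 0.80 over the control. Padi4, the enzyme that citrullinates histones in neutrophils, was lower at 0.5 Gy by a log2 difference of -0.86, and the adhesion gene Ceacam1 was higher at 0.02 Gy by 0.80. Ms4a3, a gene of granulocyte and monocyte progenitors picked after its values were seen, had 4.39, 4.83, 5.14 and 4.66 and was highest at 0.1 Gy, as Mpo was. Ctsc, picked from the same list in the same way, had 7.18, 6.96, 6.68 and 6.81 and was lowest at 0.1 Gy.

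Of 32 measured regulators and receptors of granulocytes, 1 was at least 2-fold higher (Cebpd) and 1 lower (Tyrobp) at 0.02 Gy, 0 passed that level at 0.1 Gy, and 1 was higher (Ly6g) at 0.5 Gy. The medians were 0.00, 0.00 and 0.01. Cebpd, which encodes the C/EBP family member C/EBPδ, had log2 intensities of 3.67, 5.29, 3.88 and 3.88, and only the 0.02 Gy array reached the filter level. Cebpa, the family member required to form granulocyte and monocyte progenitors, had 3.45, 3.63, 4.20 and 3.63, highest at 0.1 Gy. Its values on the other arrays, the control among them, lay below the receptor genes' 95th percentile. Ly6g, the surface antigen of mature mouse neutrophils, had 2.65, 2.81, 2.58 and 4.35, so it was at background on the 0.1 Gy array where most members were highest. Tyrobp, the signalling adaptor DAP12, had 5.18, 4.05, 5.77 and 6.15. At 0.5 Gy its difference of 0.97 passed 2-fold under quantile normalization or cyclic loess, which made the count 2 of 32.

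Of 17 measured genes for other S100 proteins and alarmin receptors, 2 low genes (S100a5 and S100g) passed 2-fold upwards at 0.02 Gy, and 2 (S100a4 and Ly96) downwards at 0.1 Gy. The count downwards at 0.02 Gy was 0, or 1 under quantile normalization or median centring. At 0.5 Gy 0 passed that level, and the medians were 0.00 at each dose. S100a4, a calcium-binding protein linked to cell motility, had log2 intensities of 9.46, 10.04, 8.13 and 9.07 in order of dose, and was lowest on the 0.1 Gy array, where S100a8 and S100a9 were highest. S100a6 was also lowest there, by -0.61. Ly96, which encodes MD-2, the partner of the receptor Tlr4, had 5.89, 4.92, 4.21 and 5.34, and was likewise lowest at 0.1 Gy. Ager, the receptor for advanced glycation end products, was above the filter level only at 0.5 Gy, at 4.29.

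**Figure D4:**
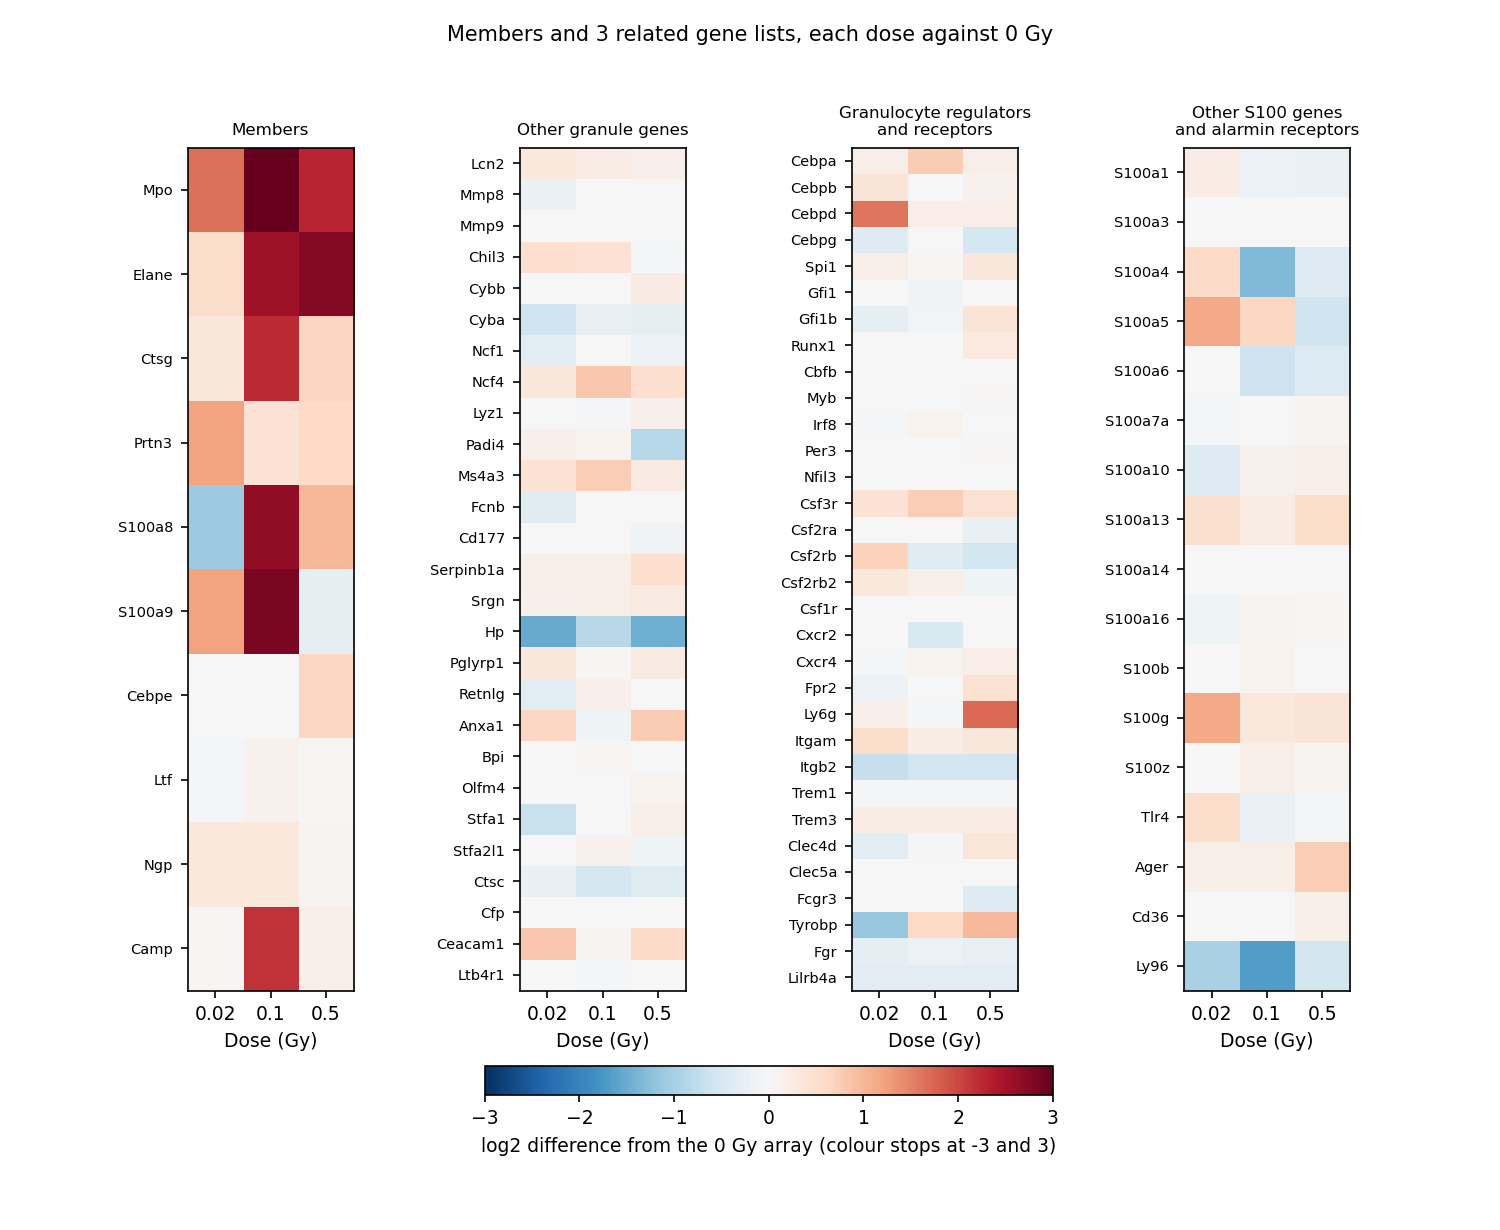
Log2 difference of each irradiated array (columns, dose in Gy) from the 0 Gy array, as colour, for the 10 genes and 3 lists of related genes; 1 cell is 1 gene at 1 dose, and colours stop at -3 and 3. The dark red cells lie in the panel of the 10 genes, and the lists have 0 genes at least 2-fold higher at 0.1 Gy, against 1.13% of all named genes. At that share lists this short would hold few or none, and the 10 genes were chosen with earlier results of these arrays known.

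Markers of other blood cells were set beside these values. The gate removes cells with lineage markers, Flk2 or CD48, which covers most of these cells, so the markers serve as a check of it. In a bulk RNA sample, more cells of a type and more RNA per cell cannot be told apart. Of 9 progenitor markers, 4, 3, 4 and 4 reached the filter level at 0, 0.02, 0.1 and 0.5 Gy, and their summed linear intensity was 636, 953, 1035 and 1058. Cd34, which is low on long-term stem cells and higher on progenitors, had log2 intensities of 8.68, 7.79, 9.77 and 9.70, and Flt3, which encodes the excluded Flk2, had 4.46, 4.76, 5.44 and 4.76. Both were highest on the 0.1 Gy array, and Cd53, in the same list, was lowest there, with 7.12, 9.35, 5.64 and 7.03. Without Cd34, which made up 84.5% of the sum at 0.1 Gy, the progenitor sums were 227, 731, 161 and 224, so the list did not move as a whole. Of 11 monocyte and macrophage markers, 4, 4, 3 and 4 reached the filter level, with sums of 1205, 1431, 456 and 784. Cd74 made up much of these sums, and without it they were 223, 612, 222 and 183. Ly6c2, with 6.28, 8.18, 6.83 and 4.72, and Ms4a6c, with 4.53, 5.60, 5.32 and 4.82, were above the control at 0.1 Gy by less than 2-fold. At that dose 2 of the 11, Cd68 and Cd74, were at least 2-fold lower, against 1.69% of all named genes. The count higher was 0, against 1.13%. At 0.02 Gy 3 of the 11 (Cd68, Ly6c2 and Ms4a6c) were at least 2-fold higher, against 1.81%, and 0 lower, against 1.10%. At 0.5 Gy 0 were higher, against 1.23%, and 1 (Ly6c2) was lower, against 1.87%. Cd68 had 6.10, 7.78, 4.02 and 6.18 in order of dose. The defining markers Csf1r, at 3.11 on all 4 arrays, and Adgre1, at 3.22, were below the receptor genes' 95th percentile. The members' own sum was 326, 689, 1201 and 623.

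Of 12 eosinophil, basophil and mast cell markers, 2, 4, 2 and 2 reached the filter level, with sums of 208, 497, 158 and 167, highest at 0.02 Gy. Without Prg2 these sums were 94.0, 115, 117 and 154, highest at 0.5 Gy. Of 11 B and plasma cell markers 6, 8, 7 and 5 reached the filter level. Their sums were 1576, 2980, 892 and 706, highest at 0.02 Gy, the array on which Prtn3 was highest. On that array 4 of the 11 (Cd79a, Cd79b, Vpreb3 and Mzb1) were at least 2-fold higher, against 1.81% of all named genes, and 0 lower, against 1.10%. At 0.1 Gy 0 were higher and 1 lower, against 1.13% and 1.69%. At 0.5 Gy 1 was higher and 2 lower, against 1.23% and 1.87%. Erythroid markers had sums of 2816, 2128, 3340 and 3820 over 7 genes. Without Car2, the largest part of each, these were 729, 538, 1442 and 2042, so higher at 0.1 and 0.5 Gy. At 0.1 Gy 2 of the 7 (Klf1 and Car1) were at least 2-fold higher, against 1.13% of all named genes, and 0 lower, against 1.69%. Megakaryocyte and platelet markers had sums of 3168, 2834, 2175 and 2638 over 7. Genes of the long-term stem cell gate, the excluded Flt3 and Cd48 among them, had 2562, 3653, 2729 and 2622 over 8. Without Kit, the largest part of each, these were 1420, 2133, 1378 and 1511. Of 8 T and NK cell markers 2 reached the filter level on each array, Nkg7 and Klrb1c, and without Nkg7 their sums lay between 92.7 and 102. The part of any of these in the members' differences was not tested.

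Genes with the pattern most like that of Mpo were found by the Euclidean distance between log2 profiles centred on their mean over the 4 arrays. Nearest among the 11593 kept genes, members and the classes left out of naming aside, were Tnfrsf12a at 1.14, Id3 at 1.15, Sarnp at 1.39, Clnk at 1.44 and Il10rb at 1.47. Id3, which encodes an inhibitor of differentiation factors, had 4.48, 5.74, 7.04 and 6.74 in order of dose. Among members, Ctsg stood at 1.40 and Elane at 1.54 from Mpo, S100a9 at 1.93, S100a8 at 1.94 and Prtn3 at 2.74. For S100a9 the nearest were Cby1 at 0.90, Cntf and Hnf4a at 1.06, Crebl2 at 1.16 and Tnfrsf12a at 1.23, while S100a8 stood at 2.55. With 4 arrays many unrelated genes share a pattern, so the distances describe these arrays only.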

How the data were processed

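RNA of sorted mouse long-term haematopoietic stem cells was labelled with an Affymetrix whole-transcript kit, per the labels' protocols, and hybridised to 1 array for each of 4 doses. The values deposited by the authors are log2 intensities, 1 per Entrez-gene probe set. Base 2 is inferred, since values run from 1.22 to 13.0. The submitters' processing notes name Partek, without its role; the background correction and the normalization are not stated there.

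Values were used as deposited. The platform table gave 23185 of 25206 probe sets a symbol, and 2021 unnamed ones were left out. Arrays were grouped by labelled dose and compared as log2 differences, with counts at 2-fold. The 10 members and all lists were chosen with earlier results of these data known. Related genes named are the 4 of each list with the largest difference among those at the filter level on an array, the nearest coding neighbours and the 5 nearest profiles to Mpo and to S100a9 (predicted genes, receptors, small RNAs and antigen receptor segments left out), with exceptions stated. The fit used limma 3.58.1 (lmFit and eBayes, p-values adjusted by Benjamini-Hochberg over all genes kept) under R 4.3.3. A trial of it on simulated data gave the control the same spread as the irradiated arrays, so the trial cannot check that assumption. Promoter sequences are RefSeq's and matched 9 of 10 members. Exact ties were common: 23.0% of named genes had equal values at 0.1 and 0 Gy. Alternatives were 3 scalings, filters, thresholds, another control and leaving out arrays.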

Additional observations from a re-analysis of the deposited data

Results flagged for a closer look

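S100a8 was at least 2-fold away from the 0 Gy array in opposite directions at different doses, with a log2 difference of 2.65 at 0.1 Gy and -1.08 at 0.02 Gy. The 0.02 Gy value of 2.81 lay below the 95th percentile of olfactory and vomeronasal receptor genes, 3.75 on that array, and with low values raised to it the 0.02 Gy difference was -0.14, so its direction and size rest on a signal at background. Each difference rests on 1 array and the difference between them was not tested.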

How the results depend on the processing

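Quantile normalization, median centring and cyclic loess moved each of the 30 member differences by less than the spread of all kept genes (a scaled median absolute deviation), and the 3 scalings gave 3 in place of 2 members at 2-fold at 0.5 Gy. With each irradiated array set against the average of the other 3, 2 members were beyond 2-fold at 0.02 Gy in place of 4, with 0 higher and 2 lower, and at 0.5 Gy 1 was higher and 1 lower. Of the 30 differences 8 changed sign: those of Mpo (to -0.42), Elane (-1.21), Ctsg (-0.61) and Camp at 0.02 Gy, Prtn3 at 0.1 Gy (-0.17), and Ctsg (-0.22), Ngp and Camp at 0.5 Gy. A 3-fold threshold left 1 member at 0.02 Gy, and a 1.5-fold threshold gave 6 at 0.5 Gy. The count of 6 at 0.1 Gy was 6 under the 3 scalings, the other control, the other thresholds and raised low values. Among members that pass the filter it was 5, but Ctsg and S100a8 pass only through the 0.1 Gy array, so this count is no sign of stability. A stricter filter left 222, 255 and 273 of all genes beyond 2-fold in order of dose, in place of 468, 495 and 538. Raising low values to the receptor genes' 95th percentile moved 6 differences against 0 Gy, 3 of them of Ctsg. Without the filter limma called 213 genes, and 0 of the 10 members. The cause was not tested. Of all named genes, 2664 had identical values on the 3 irradiated arrays. Of these 2664, 1883 lay below the filter and 1092 differed from the 0 Gy array. Leaving out each irradiated array in turn gave 0 to 0 calls, and the members' adjusted p lay between 0.31 and 1 over all settings. No paired analysis was possible because each dose has 1 array and the labels carry no replicate numbers. Low intensities limit the folds of Elane, Ctsg, S100a8 and Camp, whose control values are near background.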

Other observations

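The genes beside the members on the chromosome gave further values. At the Prtn3 and Elane locus, the next coding gene before Prtn3 is Plppr3, which lies 4709 bases away and had log2 intensities of 5.65, 6.67, 6.27 and 6.48 at 0, 0.02, 0.1 and 0.5 Gy. Its order over the 4 arrays was that of Prtn3, with 0 Gy lowest, then 0.1, 0.5 and 0.02 Gy, and not that of Elane. Lpo, the lactoperoxidase gene 2016 bases from Mpo and a relative of it, lay between 3.73 and 4.20, and Tspoap1 on the other side between 3.61 and 3.77. Beside Ctsg, the granzyme gene Gzme was at 1.95 on all 4 arrays and the basophil protease gene Mcpt8 lay between 2.60 and 3.10. Beside S100a8, S100a7a lay between 3.77 and 3.90.

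Slc7a8, an amino acid transporter gene 10041 bases from Cebpe, had 4.71, 6.85, 5.99 and 6.21 in order of dose. It was at least 2-fold above the control on all 3 irradiated arrays, by 1.28 or more on the log2 scale, whereas Cebpe differed by 0.63 or less. Nme6, 4403 bases from Camp, had 7.04, 6.24, 7.83 and 7.04, highest at 0.1 Gy as Camp was, with equal values at 0 and 0.5 Gy.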
